A study of Mus musculus with 7 samples.

Results

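The thymus holds epithelial cells that feed developing T cells with secreted signals, and 8 of the genes for such signals are described here: *Il7*, *Il15*, *Tslp*, *Il33*, *Kitl*, *Csf1*, *Tgfb1* and *Tgfb2*. They were chosen by name as cytokines of thymic epithelial cells (TECs), and they are 8 of the 20839 genes listed in the series. All 8 were listed in all 7 libraries. Each gene was followed in 8220 of 8453 cells, those with no captured molecule of *Ptprc* (the blood cell marker CD45), by gates set on single genes and by library.

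Every library was made from sorted EpCAM+ CD45- thymic cells of C57BL/6 mice, with 3 thymi pooled, and sequenced by scRNA-seq in droplets. The lineage tracing library came from Aire-CreERT2-R26-CAG-Stopfl-zsGreen mice aged 6 weeks that had received 2 mg of tamoxifen by gavage every other day for 10 days, so the *Aire* promoter drove the Cre that switched the reporter on. The other 6 libraries came from mice given 3 treatments of 100 µg of antibody within 1 week. They were an isotype control and an anti-RANKL library at week 2 after treatment (age 4 weeks), an isotype control and an anti-RANKL library at week 10 (age 12 weeks), and anti-RANKL libraries at week 4 (age 6 weeks) and week 6 (age 8 weeks). Each condition was a single library, and weeks 4 and 6 had no control of their own age.

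TECs of the cortex (cTECs) and of the medulla (mTECs) support different steps of T cell development. IL-7 is required for the survival of early T cell progenitors, IL-15 for natural killer cells and for several lineages of innate-like T cells, and stem cell factor, the product of *Kitl*, for progenitors that carry the receptor *Kit*. RANKL, which the antibody blocks, drives the maturation of mTECs toward the *Aire*-expressing state.

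The gates followed the deposited scale, which takes the unique molecular identifiers of a gene (UMIs, each standing for an RNA molecule caught in the droplet) per 10000 UMIs of its cell, adds 1 and takes the natural log. Cells above 1.5 for *Aire* made the *Aire* gate (1769 cells), cells above 4 for *Ccl21a* the *Ccl21a* gate (3451 cells), cells above 0 for the tuft cell channel *Trpm5* the *Trpm5* gate (545 cells), and cells with at least 2 of the 3 cortical genes *Psmb11*, *Ackr4* and *Prss16* above 0 the cTEC gate (1029 cells). Another 2222 cells passed no gate. The gates overlapped, with 765 cells in more than 1 of them, and 438 of the 1029 cells of the cTEC gate were also in the *Ccl21a* gate. Marker lists that left the gate genes out were highest, among the 4 gates, in their own gate in 7 of 7 libraries. Their summed level ranged from 257 to 383 UMIs per 10000 for the *Aire* list (at most 251 in another gate), from 65.3 to 103 for the *Ccl21a* list (at most 61.4 in another gate), from 16.5 to 49.0 for the *Trpm5* list (at most 5.02) and from 52.5 to 127 for the cTEC list (at most 59.5), so the ranges of the cTEC list overlapped between gates.

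The libraries held 730 to 1475 cells with medians of 4299.5 to 16809 UMIs per cell and totals of 3857876 to 22197691 UMIs. The share of *Ptprc*-negative cells in the *Aire* gate was 40.4% and 44.0% in the controls of weeks 2 and 10, and 5.24%, 1.52%, 15.2% and 38.7% in the anti-RANKL libraries of weeks 2, 4, 6 and 10. The lineage tracing library, whose labels name no antibody, had 8.95% in the *Aire* gate and 66.4% in the *Ccl21a* gate. Of 8403 distinct barcodes, 50 occurred in more than 1 library, with at most 7 shared by any pair.

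All members are protein coding genes in the GRCm38 annotation. *Il7* is at chr3:7569994-7613760 on the minus strand, *Il15* at chr8:82331632-82403222 on the minus strand and *Il33* at chr19:29925114-29960718 on the plus strand. *Kitl* is at chr10:100015630-100100416 on the plus strand, *Csf1* at chr3:107741048-107760469 on the minus strand, *Tgfb1* at chr7:25687002-25705077 on the plus strand and *Tgfb2* at chr1:186622792-186705989 on the minus strand.

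RefSeq promoter sequences matched 5 of the 8 members, with 6 windows among 32851. Those shown are the 250 bases before the start for the pair of TGF-beta genes, which shared their highest gate, and for *Kitl* and *Il33*, which shared another. Capitals mark matches to a motif of the GC box, GGGCGG, and of the TATA box, TATAAA, both searched on either strand.
*Tgfb1* (GRCm38.p6, chr7:25686752-25687001, plus strand): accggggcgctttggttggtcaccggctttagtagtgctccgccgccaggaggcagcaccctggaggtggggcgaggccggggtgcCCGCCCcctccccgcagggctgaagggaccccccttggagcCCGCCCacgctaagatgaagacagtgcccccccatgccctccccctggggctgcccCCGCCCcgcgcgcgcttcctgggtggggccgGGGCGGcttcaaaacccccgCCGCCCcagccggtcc
*Tgfb2* (GRCm38.p6, chr1:186705990-186706239, minus strand): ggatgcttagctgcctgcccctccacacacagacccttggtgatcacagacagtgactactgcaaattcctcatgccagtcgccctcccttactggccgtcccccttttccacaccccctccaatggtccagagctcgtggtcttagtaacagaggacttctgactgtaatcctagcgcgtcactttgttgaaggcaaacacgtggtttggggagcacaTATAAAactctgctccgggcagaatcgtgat
*Kitl* (GRCm38.p6, chr10:100015571-100015820, plus strand): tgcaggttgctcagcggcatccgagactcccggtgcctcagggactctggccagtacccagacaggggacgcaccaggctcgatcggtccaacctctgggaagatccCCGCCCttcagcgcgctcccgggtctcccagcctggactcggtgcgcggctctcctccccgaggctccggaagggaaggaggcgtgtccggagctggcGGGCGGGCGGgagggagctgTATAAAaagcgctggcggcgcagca
*Il33*, upstream start (GRCm38.p6, chr19:29924863-29925112, plus strand): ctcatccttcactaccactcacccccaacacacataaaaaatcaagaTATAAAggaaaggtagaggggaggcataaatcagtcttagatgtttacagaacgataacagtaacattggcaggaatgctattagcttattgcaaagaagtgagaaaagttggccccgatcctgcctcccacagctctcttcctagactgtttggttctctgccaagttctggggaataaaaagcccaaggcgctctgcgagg
*Il33*, downstream start (GRCm38.p6, chr19:29945540-29945789, plus strand): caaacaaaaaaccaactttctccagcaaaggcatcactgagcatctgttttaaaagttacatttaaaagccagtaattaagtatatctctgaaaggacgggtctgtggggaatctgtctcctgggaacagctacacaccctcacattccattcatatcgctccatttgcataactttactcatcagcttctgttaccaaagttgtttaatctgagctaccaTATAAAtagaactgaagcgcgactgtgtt
The *Tgfb1* window was 75.2% G or C and held 5 matches to GGGCGG and none to TATAAA. The *Tgfb2* window was 53.6% G or C and held no GGGCGG and 1 TATAAA, 31 bases before the start. *Kitl*, at 69.2%, held 3 matches to GGGCGG, of which a pair overlapped by 2 bases, and a TATAAA 25 bases before the start. That RefSeq start lies 191 bases inside the *Kitl* gene as placed above, and the downstream start of *Il33* is likewise inside its gene. The *Il33* windows, at 45.2% and 39.6%, each held a TATAAA, 203 and 29 bases before the start. Over all 32851 windows of this length, 32.742% held GGGCGG and 12.368% held TATAAA.

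The gates were compared within libraries. UMIs were summed per gate and library, giving 28 profiles, and each gate was tested against the mean of the other 3 with limma on log2(UMIs per 10000 + 0.1), with the library as a block and Benjamini-Hochberg adjustment over 8640 genes. Each difference below is on that scale, which understates the change of low genes. The *Aire* gate differed from the other gates for 61.7% of genes, 20.1% higher and 41.6% lower, and the median difference over all genes was -0.14. The share was 44.6% for the *Ccl21a* gate (21.0% higher and 23.6% lower), 35.8% for the *Trpm5* gate (22.0% higher and 13.8% lower) and 24.4% for the cTEC gate (16.9% higher and 7.53% lower). Against this background, 6 of 8 members passed in the *Aire* gate (3 higher, 3 lower), 5 in the *Ccl21a* gate (2 higher, 3 lower), 3 in the *Trpm5* gate (3 lower) and 4 in the cTEC gate (3 higher, 1 lower). The median difference of the members was 0.32 in the *Aire* gate, -0.40 in the *Ccl21a* gate, -0.24 in the *Trpm5* gate and 0.15 in the cTEC gate. Between pairs of gates, the share of genes that passed was 58.0% for *Aire* against *Ccl21a*, 49.1% for *Aire* against *Trpm5*, 52.8% for *Aire* against cTEC, 43.5% for *Ccl21a* against *Trpm5*, 14.1% for *Ccl21a* against cTEC and 32.6% for *Trpm5* against cTEC. The 7 libraries differ in treatment, so the spread behind these p-values holds treatment as well as replicate error.

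**Figure D1:**
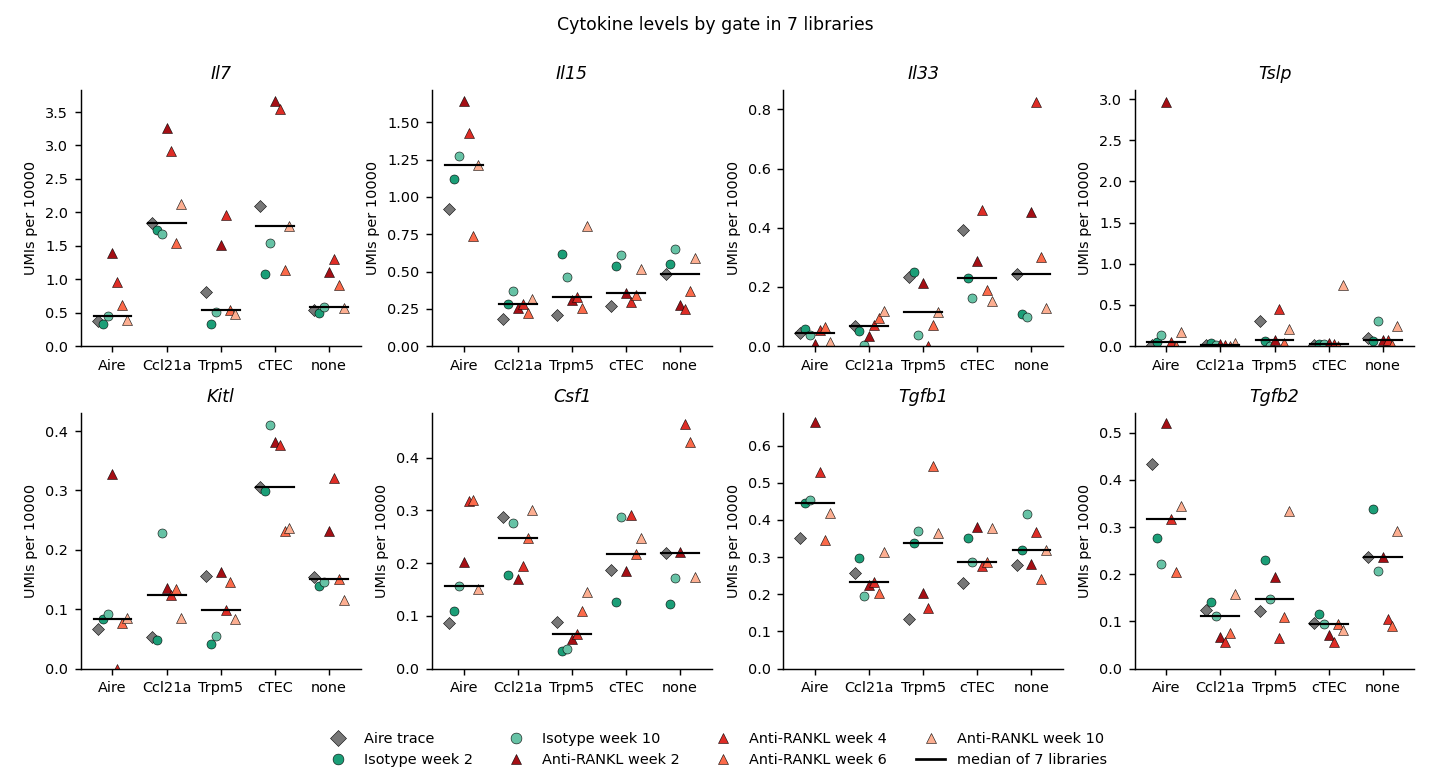
Level of each member in UMIs per 10000 UMIs (linear axes, which differ between panels) in the 4 gates and in ungated cells (none), with 1 point per library and a line at the median of 7 libraries. Among the gates, *Il7* was highest in the *Ccl21a* and cTEC gates, *Il15* and *Tgfb2* in the *Aire* gate in 7 of 7 libraries, and *Kitl* in the cTEC gate in 7 of 7 libraries.

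*Il7* was highest in the *Ccl21a* and cTEC gates. In the order lineage tracing, control week 2, control week 10 and anti-RANKL weeks 2, 4, 6 and 10, its level in UMIs per 10000 was 1.84, 1.73, 1.68, 3.26, 2.92, 1.54 and 2.12 in the *Ccl21a* gate. In the cTEC gate the same libraries gave 2.09, 1.08, 1.55, 3.66, 3.54, 1.14 and 1.79. The *Aire* gate gave 0.376, 0.327, 0.445, 1.39, 0.953, 0.613 and 0.395. The *Ccl21a* gate was the highest in 4 libraries and the cTEC gate in 3, and within every library both lay above the *Aire* gate. Both differences from the other gates passed, by 1.06 (SE 0.12, adjusted p = 2.6e-07, limma) for *Ccl21a* and 0.91 (SE 0.12, adjusted p = 6.7e-06) for cTEC. The *Aire* gate was lower by a difference of -1.21 (SE 0.12, adjusted p = 1.8e-08) and the *Trpm5* gate by -0.76 (SE 0.12, adjusted p = 2.5e-05), each in 7 of 7 libraries. Between neighbours in the order, the *Ccl21a* and cTEC gates differed by 0.11 (95% interval -0.19 to 0.41, adjusted p = 0.71) and the *Aire* and *Trpm5* gates by -0.33 (-0.64 to -0.03, adjusted p = 0.065). The part of a library's *Il7* UMIs that a gate held moved with the size of the gate. The *Ccl21a* gate held 33.8% and 35.0% in the controls of weeks 2 and 10 and 43.8% to 83.1% in the other 5 libraries, and the *Aire* gate 27.3% and 31.9% in the controls and 0.977% to 25.0% in the others.

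Detection followed the levels. With every cell thinned to 2000 UMIs, the expected share of cells with an *Il7* UMI had a median over libraries of 29.6% in the cTEC gate, 29.3% in the *Ccl21a* gate, 12.2% in the *Trpm5* gate and 7.45% in the *Aire* gate. Before thinning, the pooled shares were 72.3%, 66.8%, 39.6% and 36.6%. T cells, which should lack *Il7*, had a median thinned share of 4.98% (range 0 to 27.6%) over 65 cells with *Ptprc* and T cell genes. Those T cells also carried 6.60 to 71.9 UMIs per 10000 of the epithelial list *Epcam*, *Krt8* and *Krt18*, so they bound the background only loosely. The *Aire* gate had medians of 7267 to 21905 UMIs per cell and the *Ccl21a* gate 4372 to 14340.5.

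*Il15* ran the other way and was highest in the *Aire* gate in 7 of 7 libraries. Its levels there were 0.920, 1.12, 1.27, 1.64, 1.43, 0.741 and 1.22 UMIs per 10000 in the library order above. In the *Ccl21a* gate they were 0.185, 0.282, 0.371, 0.256, 0.280, 0.222 and 0.318. The lowest *Aire*-gate level lay above every level of the *Ccl21a* and cTEC gates (at most 0.611) and below 1 level of the *Trpm5* gate, 0.804 in the anti-RANKL week 10 library. The *Aire* gate stood above the others by 1.48 (SE 0.12, adjusted p = 9.7e-10) and the *Ccl21a* gate below them by a difference of -0.88 (SE 0.12, adjusted p = 1.9e-06). The latter was -0.23 (adjusted p = 0.44) with all 4 gates made stricter, which left 13 to 37 cells per library in the cTEC gate and dropped 4 profiles of under 20 cells. The *Trpm5* gate was lower by a difference of -0.32 (SE 0.12, adjusted p = 0.032) in 5 of 7 libraries, and this call was lost when any 1 of 5 libraries was left out, the lineage tracing library (adjusted p = 0.12) and the anti-RANKL week 2 (0.096), week 4 (0.071), week 6 (0.075) and control week 10 libraries (0.087). The cTEC gate differed by -0.28 (adjusted p = 0.080). The *Trpm5* and cTEC gates differed from each other by -0.03 (95% interval -0.33 to 0.26, adjusted p = 0.89). The *Aire* gate held 70.4% and 70.9% of the *Il15* UMIs in the controls of weeks 2 and 10, but 36.0% and 12.3% in anti-RANKL weeks 2 and 4, where the larger *Ccl21a* gate held 39.0% and 62.3%. Thinned to 2000 UMIs per cell, the median share of cells with an *Il15* UMI was 19.8% in the *Aire* gate, 4.97% in the *Ccl21a* gate and 3.62% in T cells (range 0 to 6.85%), from 59.8%, 17.4% and 23.1% before thinning.

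IL-15 is carried to its target cells on the IL-15 receptor alpha chain of the cell that makes it and is read through the gamma chain, which IL-7 and IL-15 receptors share. The gamma chain gene *Il2rg* rose with *Il15* in the *Aire* gate, by 1.89 (SE 0.17, adjusted p = 4.0e-09), with median levels of 0.910 UMIs per 10000 in the *Aire* gate and 0.0761 in the *Ccl21a* gate. The alpha chain gene *Il15ra* did not go with *Il15*. It was higher in the *Ccl21a* gate by 0.48 (SE 0.08, adjusted p = 1.4e-05) and lower in the *Trpm5* gate by a difference of -0.46 (adjusted p = 4.3e-05), and in the *Aire* gate the difference was 0.02 (adjusted p = 0.87). Genes of myeloid cells were also highest in the *Aire* gate. A list of 7 myeloid markers was highest in the *Aire* gate in 7 of 7 libraries, at 3.99 to 9.26 UMIs per 10000, against 0.218 to 2.80 in the *Ccl21a* gate, 0.261 to 5.79 in the *Trpm5* gate and 0.156 to 5.75 in the cTEC gate. *Lyz2* made up most of that sum, while the dendritic cell integrin *Itgax* had 0 to 7 UMIs and the macrophage receptor *Csf1r* 1 to 78 UMIs in the whole *Aire* gate of a library. Their part in the *Il15* and *Il2rg* differences was not tested.

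*Tslp*, which encodes thymic stromal lymphopoietin, a cytokine related to IL-7 that acts on dendritic and T cells, passed in no gate. The gene is at chr18:32815383-32819797 on the plus strand of GRCm38. Its level in the *Aire* gate was 0.0143, 0.0482, 0.133, 2.96, 0.0529, 0 and 0.176 UMIs per 10000, so the anti-RANKL week 2 library stood far above the rest. Among the gates, *Trpm5* was the highest in 4 libraries, *Aire* in 2 and cTEC in 1. Levels in the *Trpm5* gate were 0.3003, 0.0609, 0, 0.0694, 0.457, 0.0364 and 0.209. Without thinning, 15.7%, 8.24%, 0%, 8.23%, 8.62%, 2.33% and 10.7% of its cells had a *Tslp* UMI. In the *Aire* gate these shares were 2.54%, 3.95%, 3.28%, 12.9%, 4.55%, 0% and 2.65%. The differences were 0.60 (SE 0.42, adjusted p = 0.22) for the *Aire* gate, -0.79 (adjusted p = 0.13) for *Ccl21a*, 0.41 (adjusted p = 0.48) for *Trpm5* and -0.21 (adjusted p = 0.76) for cTEC. The *Aire* gate was the higher side in 3 of 7 libraries. Without the anti-RANKL week 2 library its difference was -0.05.

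Among the *Ptprc*-negative cells, few held most of the *Tslp*. Its 1014 UMIs there lay in 217 cells, and 27 cells with at least 5 UMIs each held 76.2% of them. The largest had 275 *Tslp* UMIs among 28893 and lay in the *Aire* gate of the anti-RANKL week 2 library. A cell of the *Aire* gate of the control of week 10 had 68 of 13229, another of the anti-RANKL week 2 library 66 of 18392, and a cell of the anti-RANKL week 10 library that passed the *Aire* and cTEC gates 60 of 30648. High counts also occurred in shallow cells, with 39 of 3664 and 34 of 3744 UMIs in ungated cells of the control of week 10. Of the 27 cells, 14 were ungated, 9 in the *Aire* gate, 4 in the *Trpm5* gate, 1 in the *Ccl21a* gate and 1 in the cTEC gate, with 1 cell in *Aire* and cTEC and 1 in *Aire* and *Trpm5* counted under both. They came from 6 of 7 libraries, 8 from anti-RANKL week 10, 7 from the control of week 2 and 4 each from the control of week 10 and anti-RANKL week 2. An *Epcam* UMI was present in 25 of the 27, *Krt8* in 23, *Krt14* in 21, *Krt10* in 8 and *Il7* in 7, and 17 lay above the median depth of their library. Cells with a *Ptprc* UMI, 11 to 69 per library, were left out of these counts. In the library order above, 18.8%, 14.7%, 4.17%, 26.3%, 0%, 0% and 15.2% of them had a *Tslp* UMI. The *Ptprc*-negative cells had 2.12%, 3.897%, 2.97%, 3.97%, 1.31%, 0.417% and 3.33%.

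**Figure D2:**
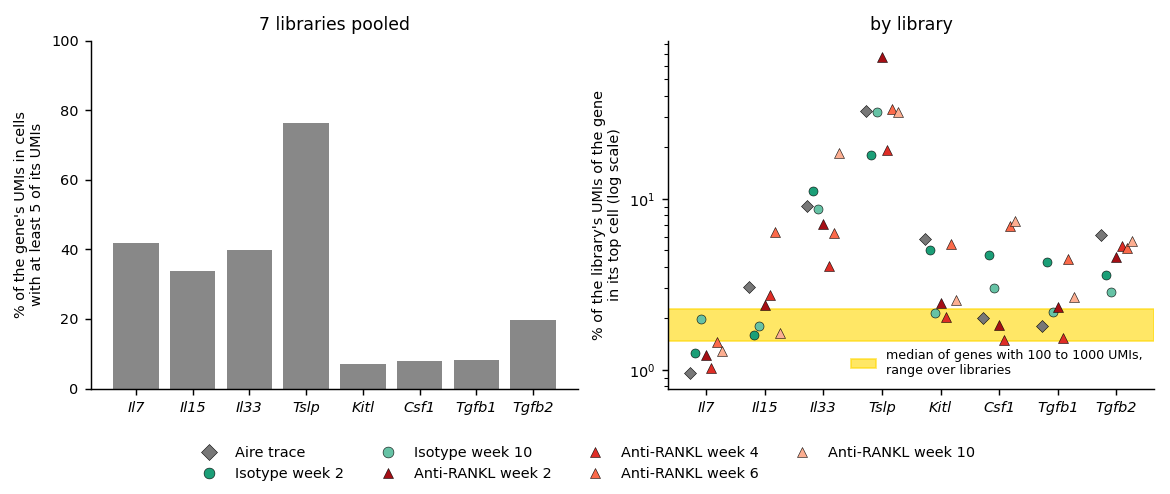
How each member's UMIs were spread over cells, as bars of the share held by cells with at least 5 of its UMIs (left, 7 libraries pooled) and as points for the share in the top cell of each library (right, log axis), with a band for the median gene of 100 to 1000 UMIs. *Tslp* had 3 to 67 UMIs in 3 of the libraries drawn. The share of UMIs in cells with at least 5 UMIs of the member was 76.2% for *Tslp*, 41.9% for *Il7*, 39.96% for *Il33* and 33.8% for *Il15*, and under 20% for the other 4 members.

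The other members lay in more cells than *Tslp*, 472 for *Il33* to 4134 for *Il7*. *Il7* and *Il15* were also the most abundant members, at 10765 and 5162 UMIs. Cells with at least 5 UMIs held 41.9% of *Il7* (578 cells), 39.96% of *Il33* (49 cells), 33.8% of *Il15* (231 cells) and 19.8% of *Tgfb2*, but 8.30% of *Tgfb1*, 7.78% of *Csf1* and 6.96% of *Kitl*. In the 4 libraries where *Tslp* had 100 to 1000 UMIs, it had 2.52 to 8.62 UMIs per cell with a UMI, and the median gene of that range had 1.27 to 1.42. The top cell of those libraries held 18.0% to 67.9% of the *Tslp* UMIs, against 1.63% to 2.27% for that median gene.

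*Il33* encodes an alarmin of the IL-1 family that is stored in nuclei and released on damage. Among the gates it was highest in the cTEC gate in 6 of 7 libraries, at 0.393, 0.231, 0.162, 0.289, 0.461, 0.190 and 0.154 UMIs per 10000 in the library order above. In the *Aire* gate it was 0.0429, 0.0595, 0.0371, 0.00838, 0.0529, 0.0639 and 0.0130, below the cTEC gate in every library. The cTEC gate was higher by 1.08 (SE 0.19, adjusted p = 2.0e-04), and the *Aire* gate was lower by a difference of -0.73 (SE 0.19, adjusted p = 0.0020). *Ccl21a* (-0.44, adjusted p = 0.059) and *Trpm5* (0.09, adjusted p = 0.75) did not pass. The *Trpm5* and cTEC gates differed by -0.74 (adjusted p = 0.016), while the *Aire* and *Ccl21a* gates differed by -0.21 (95% interval -0.69 to 0.27, adjusted p = 0.44).

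Ungated cells held the largest part of the *Il33* UMIs in 6 of 7 libraries, 38.1% to 56.5%. In the lineage tracing library they held 33.7% and the cTEC gate 43.9%. Their levels were 0.243, 0.108, 0.0996, 0.454, 0.824, 0.3003 and 0.128 UMIs per 10000, so anti-RANKL weeks 2, 4 and 6 were the highest 3. A fibroblast list of 5 markers had the same 3 libraries on top among ungated cells, at 2.53, 2.11, 3.28, 12.3, 14.4, 10.2 and 2.303 UMIs per 10000. Nearly all of it was *Dcn*, with 2100 UMIs in the ungated cells of anti-RANKL week 4. The fibroblast receptor gene *Pdgfra* was at 0 UMIs in the ungated cells of 5 libraries and at 8 and 2 in the others, and the collagen gene Col1a1 at 0 to 117 UMIs. The cells had been sorted as EpCAM+ CD45-. The same list was at 2.83 to 7.50 in the cTEC gate and 0.286 to 2.62 in the *Aire* gate, with 0 or 1 *Pdgfra* UMI per library in the cTEC gate. The part of fibroblast RNA in the *Il33* levels was not tested.

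*Kitl*, the stem cell factor gene, was highest in the cTEC gate in 7 of 7 libraries. The levels there were 0.307, 0.2998, 0.411, 0.381, 0.376, 0.231 and 0.236 UMIs per 10000 in the library order above, against 0.0527, 0.0484, 0.228, 0.135, 0.124, 0.133 and 0.0853 in the *Ccl21a* gate. The cTEC gate was higher by 1.06 (SE 0.16, adjusted p = 4.1e-05). The *Aire* gate was lower by a difference of -0.46 (SE 0.16, adjusted p = 0.016) in 6 of 7 libraries. That call rested on the anti-RANKL week 4 library, whose 22 *Aire*-gate cells had 0 *Kitl* UMIs, and without it the difference was -0.30 (adjusted p = 0.11). The *Ccl21a* (-0.26, adjusted p = 0.19) and *Trpm5* gates (-0.34, adjusted p = 0.11) did not pass. Among *Aire*, *Ccl21a* and *Trpm5* gates no pair passed, with adjusted p of 0.53 to 0.85. Thinned to 2000 UMIs, the median share of cells with a *Kitl* UMI was 6.95% in the cTEC gate and 1.503% to 2.26% in the other gates, with 0.853% in T cells (range 0 to 8.07%). In anti-RANKL weeks 4 and 6 the T cell shares, 8.07% and 7.88% of 6 cells each, lay above those of the cTEC gate, 7.47% and 5.53%. Before thinning, 24.8% of cTEC-gate cells had one.

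The receptor gene *Kit* was placed in another gate. It was higher in the *Trpm5* gate by 1.34 (SE 0.15, adjusted p = 2.1e-07), with a median level of 0.512 UMIs per 10000 there, 0.189 in the *Aire* gate, 0.0955 in the cTEC gate and 0.0447 in the *Ccl21a* gate.

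*Csf1*, which encodes the macrophage growth factor M-CSF, was low in the *Trpm5* gate. Levels there were 0.0890, 0.0338, 0.0370, 0.0555, 0.0653, 0.109 and 0.146 UMIs per 10000. The *Ccl21a* gate had 0.288, 0.177, 0.276, 0.1704, 0.194, 0.247 and 0.301, above the *Trpm5* gate in each library. The *Trpm5* gate was lower by a difference of -0.83 (SE 0.12, adjusted p = 1.2e-05) and the *Ccl21a* gate higher by 0.42 (SE 0.12, adjusted p = 0.0072) in 6 of 7 libraries. The cTEC gate (0.32, adjusted p = 0.060) and the *Aire* gate (0.09, adjusted p = 0.55) did not pass. No pair among the *Aire*, *Ccl21a* and cTEC gates passed, with adjusted p of 0.16 for *Aire* against *Ccl21a*, 0.34 for *Aire* against cTEC and 0.82 for *Ccl21a* against cTEC.

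*Tgfb2*, one of the TGF-beta ligands, was highest in the *Aire* gate, as *Il15* was. Its level in the *Aire* gate was 0.434, 0.277, 0.223, 0.520, 0.318, 0.204 and 0.345 UMIs per 10000, the highest of the 4 gates in 7 of 7 libraries. In the cTEC gate it was 0.0958, 0.115, 0.0955, 0.0715, 0.0568, 0.0952 and 0.0827. The *Aire* gate was higher by 0.97 (SE 0.12, adjusted p = 5.8e-07), and the cTEC gate (-0.59, SE 0.12, adjusted p = 0.0013) and the *Ccl21a* gate (-0.43, SE 0.12, adjusted p = 0.0064) were lower in 7 of 7 libraries each. The cTEC call was lost with all 4 gates made stricter (adjusted p = 0.057), where the cTEC gate held 13 to 37 cells per library. The *Trpm5* gate lay between, 0.69 below the *Aire* gate (adjusted p = 7.0e-04) and 0.48 above the cTEC gate (adjusted p = 0.019). The *Aire* gate held 50.3% and 58.5% of the *Tgfb2* UMIs in the controls of weeks 2 and 10, and 28.2% and 10.5% in anti-RANKL weeks 2 and 4.

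*Tgfb1*, the other TGF-beta ligand among the members, was also highest in the *Aire* gate, in 6 of 7 libraries. The *Aire* gate gave 0.353, 0.446, 0.454, 0.662, 0.529, 0.345 and 0.419 UMIs per 10000. The *Ccl21a* gate gave 0.256, 0.298, 0.196, 0.226, 0.233, 0.203 and 0.313. The *Aire* gate was higher by 0.54 (SE 0.13, adjusted p = 0.0012). The *Ccl21a* gate was lower by a difference of -0.36 (SE 0.13, adjusted p = 0.032), a call lost without anti-RANKL week 10 (adjusted p = 0.052), anti-RANKL week 2 (0.069), control week 10 (0.11) or control week 2 (0.060) and in cells that passed 1 gate only (-0.11, adjusted p = 0.62). The *Trpm5* (-0.16, adjusted p = 0.36) and cTEC gates (-0.02, adjusted p = 0.93) did not pass. The 65 T cells carried 0.406 to 1.03 UMIs per 10000 with a median over libraries of 0.776, above the median of each gate (0.233 to 0.446). Markers of T cells were at most 0.776 UMIs per 10000 in a gate, against 9.29 to 45.6 in the T cells.

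Since the gates shared cells, the test was also run on cells that passed 1 gate only. The cTEC differences were then larger, 2.02 for *Il33* and 1.81 for *Kitl*, and *Csf1* (0.61, adjusted p = 0.0019) and *Il15* (-0.50, adjusted p = 0.0038) passed there as well. In the *Trpm5* gate *Il7* differed by -1.55, *Il15* by -0.76 (adjusted p = 9.7e-05), and *Kitl* passed with -1.03 (adjusted p = 3.9e-05). In the *Ccl21a* gate *Il33* (-0.74, adjusted p = 0.018) and *Kitl* (-0.52, adjusted p = 0.014) passed. The *Kitl* difference of the *Aire* gate was -0.27 (adjusted p = 0.21).

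**Figure D3:**
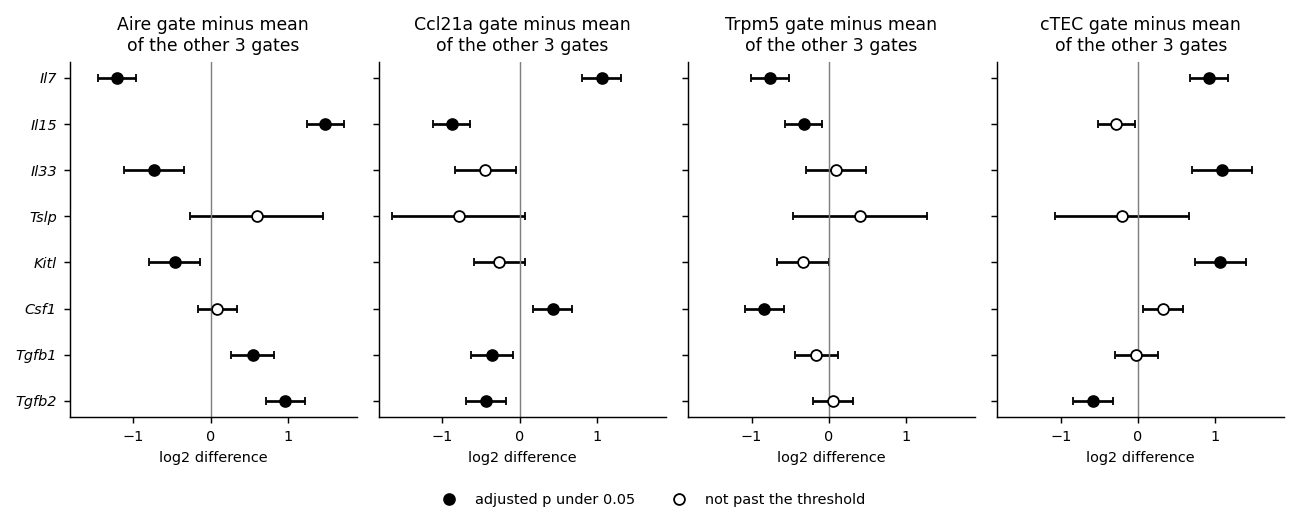
Difference of each gate from the mean of the other 3 gates on log2(UMIs per 10000 + 0.1), with 95% intervals from limma over 28 profiles of 7 libraries, filled where the adjusted p is below 0.05. *Il15* in the *Aire* gate (1.48) and *Il7* in the *Aire* gate (-1.21) are the largest, and the intervals of *Tslp* are the widest.

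Receptors, carriers and activators of the members formed a list of 25 genes, of which 14 were abundant enough to test. A gene could pass that filter through the gate in which it was high, so the counts describe the genes tested and not the list. In the *Aire* gate 2 were higher and 8 lower, where 20.1% and 41.6% of all genes were. In the *Ccl21a* gate 10 were higher and 3 lower (21.0% and 23.6% of all genes), in the *Trpm5* gate 1 and 8 (22.0% and 13.8%) and in the cTEC gate 5 and 0 (16.9% and 7.53%). The medians of the list were -0.52, 0.42, -0.33 and 0.19 in that order. *Tgfbr2*, the type II receptor that binds TGF-beta, was lower in the *Aire* gate by a difference of -1.09 (SE 0.14, adjusted p = 4.4e-07) and higher in the cTEC gate by 1.14 (SE 0.14, adjusted p = 2.3e-06). Its median level was 0.0168 UMIs per 10000 in the *Aire* gate and 0.315 in the cTEC gate. *Ltbp4*, which anchors latent TGF-beta in the matrix, was lower in the *Aire* gate by a difference of -0.99 (adjusted p = 1.5e-06) and in the *Trpm5* gate by -0.68 (adjusted p = 4.6e-04), and higher in the *Ccl21a* gate by 0.80 (adjusted p = 4.2e-05) and the cTEC gate by 0.87 (adjusted p = 6.4e-05). The co-receptor gene *Tgfbr3* was higher in the cTEC gate by 1.02 (adjusted p = 1.5e-06). *Il7r*, *Il2rb*, *Il1rl1* and *Csf1r* were too low to test.

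A list of 26 other cytokine genes had 10 abundant enough to test, with the same limit from the filter. In the *Aire* gate 8 were higher and 2 lower (20.1% and 41.6% of all genes), in the *Ccl21a* gate 1 and 9 (21.0% and 23.6%), in the *Trpm5* gate 3 and 0 (22.0% and 13.8%) and in the cTEC gate 0 and 4 (16.9% and 7.53%). The medians were 1.11, -0.77, 0.05 and -0.51. In the *Aire* gate *Il12a*, a subunit of IL-12 and IL-35, rose by 2.02 (SE 0.21, adjusted p = 4.2e-08), *Il1rn*, the IL-1 receptor antagonist, by 1.54 (adjusted p = 1.4e-06) and *Gdf15* by 1.24 (adjusted p = 1.6e-08). *Il25*, the tuft cell cytokine, rose in the *Trpm5* gate by 2.19 (SE 0.21, adjusted p = 1.7e-08) and is also on the list of *Trpm5* gate markers. *Ltb*, the gene for lymphotoxin beta, rose there by 0.82 (adjusted p = 0.0022) and was lower in the cTEC gate by a difference of -0.91 (adjusted p = 0.0015). *Il23a*, a subunit of IL-23, was lower in the cTEC gate by a difference of -0.72 (adjusted p = 3.4e-04) and *Gdf15* by -0.58 (adjusted p = 0.0013). In the *Ccl21a* gate *Il12a* was lower by a difference of -1.51 (adjusted p = 4.8e-06) and *Il25* by -1.08 (adjusted p = 2.0e-04).

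The genes most like each member over the 28 profiles were found by Pearson's r on the same log2 scale. The profiles share libraries and, through the overlap of gates, cells, so r is a description. For *Il7* they were *Nkain4* (0.94), *Tst* (0.93) and *Slc46a2* (0.93). *Il15* was closest to *Mrpl38* (0.94), *S100a14* (0.94) and *Stoml1* (0.94). *Tgfb2* came nearest to *Traf1* (0.92), *Zfp362* (0.90) and *Cacna1b* (0.88), and *Il33* to *Gsta4* (0.87), *Ncoa1* (0.85) and *Endog* (0.79). *Tgfb1* was nearest to *Rnf183* (0.86), *Gm14275* (0.84) and *Wnt10a* (0.84). *Csf1* was nearest to *Synpo2* (0.82), *Sec24d* (0.80) and *Ifi35* (0.77). *Kitl* was nearest to *Dnajc13* (0.81), *Dact2* (0.79) and *Psmb11* (0.78), the last of which is a gene of the cTEC gate. *Tslp* was nearest to *Cryba2* (0.72). Among the members themselves, *Il15* went with *Tgfb2* (0.82) and *Tgfb1* (0.73), and *Il7* went against *Tgfb2* (-0.69) and *Il15* (-0.59).

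The time course addressed what the cytokines did while the *Aire* gate emptied after RANKL blockade and refilled. With 1 library per condition there was no test. Each anti-RANKL library of weeks 2 and 10 was set against the control of its own age, with exact 95% intervals on the ratio of levels that cover counting error only. A gene counted as changed past 2-fold. Over all *Ptprc*-negative cells this held at week 2 for 31.2% of genes, 9.27% higher and 21.9% lower, and for 3 of 8 members (2 higher, 1 lower). At week 10 it held for 6.97% of genes (3.99% higher and 2.98% lower) and 0 members. A fall in a level over all cells cannot be told apart here from a fall in the share of the cells that carry the gene, so each ratio is also given within gates. Inside the gates the share of genes past 2-fold in either direction at week 2 was 19.1% for *Aire*, 10.8% for *Ccl21a*, 17.4% for *Trpm5*, 17.0% for cTEC and 23.0% for ungated cells. At week 10 it was 8.38%, 7.53%, 11.6%, 8.04% and 8.93% in the same order.

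**Figure D4:**
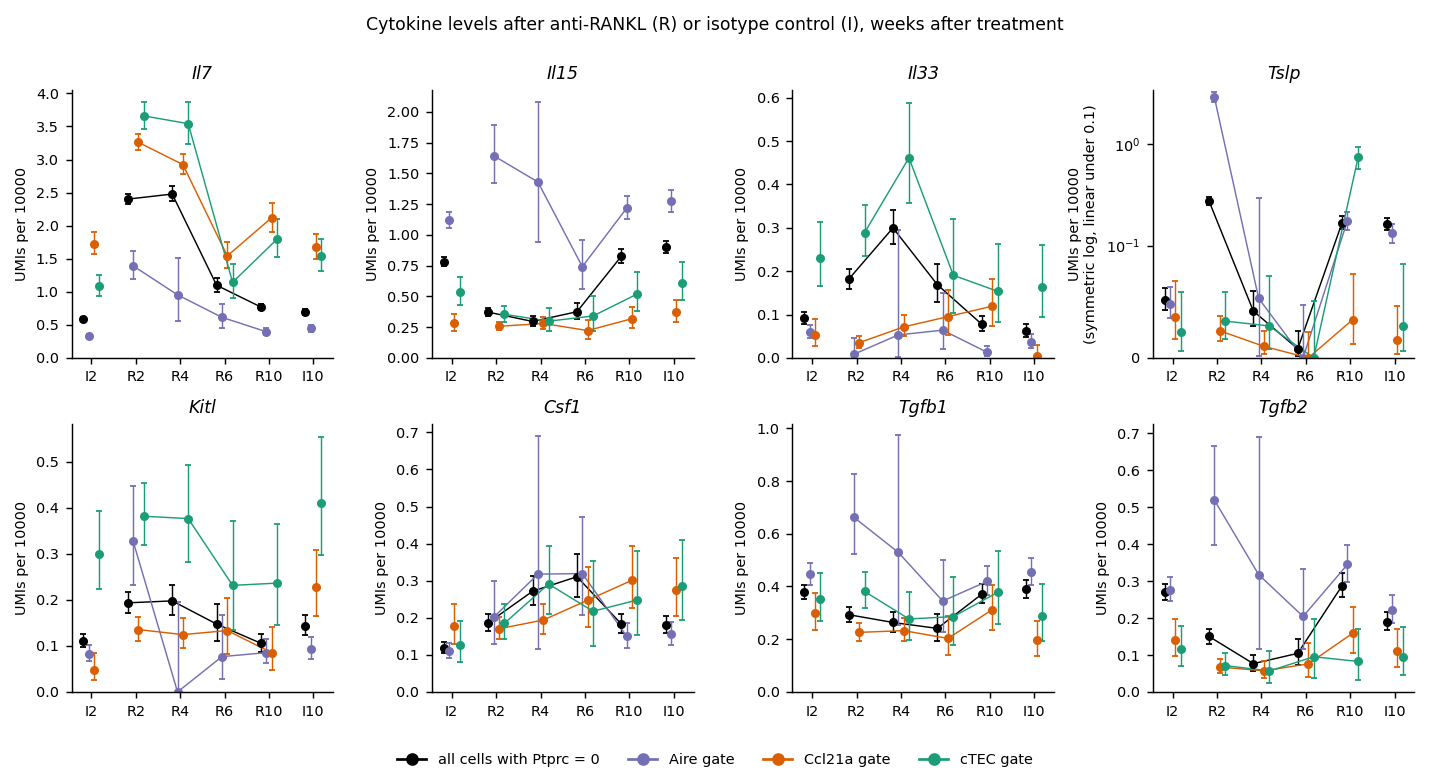
Level of each member in UMIs per 10000 over all *Ptprc*-negative cells and in the *Aire*, *Ccl21a* and cTEC gates, for the isotype controls (I2, I10) and the anti-RANKL libraries (R2, R4, R6, R10), with 95% counting intervals. The *Tslp* axis is symmetric log. *Il7* in anti-RANKL weeks 2 and 4 lies above both controls in each population drawn.

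*Il7* was 4.09-fold higher at week 2 (95% interval 3.84 to 4.37), at 2.40 against 0.587 UMIs per 10000, and 1.36% of genes had a larger ratio. Inside the gates the ratio was 4.26-fold in the *Aire* gate (3.52 to 5.14), 4.47-fold in the *Trpm5* gate (3.31 to 6.15), 3.38-fold in the cTEC gate (2.89 to 3.96), 2.19-fold in ungated cells (1.88 to 2.57) and 1.88-fold in the *Ccl21a* gate (1.70 to 2.09), the last below 2-fold. In the ungated cells of anti-RANKL week 2, 39 of 308 *Il7* UMIs lay in a single cell. Without the top cell of each library the ungated ratio was 1.97 (1.68 to 2.32), below 2-fold. T cells moved the same way on few counts, with 0.283 UMIs per 10000 in the control of week 2 (7 UMIs), 1.51 in anti-RANKL week 2 (19 UMIs, of which 13 lay in a single cell) and 3.76 in week 4 (23 UMIs, 19 in a single cell). The part of this background in the gate ratios was not tested. Anti-RANKL weeks 2 and 4 lay above both controls in 6 of 6 populations. Week 6 lay above both in 4, between them in 1 and below both in 1. At week 10 the ratio was 1.10 (1.00 to 1.21) over all cells, 1.27 (1.09 to 1.47) in the *Ccl21a* gate and 0.888 (0.740 to 1.06) in the *Aire* gate. Over all cells, *Il7* stood at 2.40, 2.48, 1.10 and 0.769 UMIs per 10000 at weeks 2, 4, 6 and 10. It was also at 1.36 in the lineage tracing library, which had no anti-RANKL.

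At week 2 *Il15* was past 2-fold lower over all cells, while its ratio inside the *Aire* gate was above 1. The ratio was 0.476 (0.432 to 0.525) over all cells, with 0.372 against 0.780 UMIs per 10000. In the *Aire* gate it was 1.47 (1.25 to 1.71), from 196 and 1187 UMIs, and in the *Ccl21a* gate 0.908 (0.690 to 1.21). The *Trpm5* gate (0.503, 0.361 to 0.697), the ungated cells (0.501, 0.387 to 0.642) and the cTEC gate (0.661, 0.500 to 0.877) were lower than in the control. Levels over all cells were 0.372, 0.296, 0.375 and 0.826 at weeks 2, 4, 6 and 10, next to *Aire*-gate shares of 5.24%, 1.52%, 15.2% and 38.7%. The lineage tracing library, which had no anti-RANKL, was at 0.338 with a share of 8.95%. At week 6 *Il15* lay below both controls in 6 of 6 populations, the *Aire* gate included (0.741 against 1.12 and 1.27). At week 10 the ratio was 0.918 (0.841 to 1.00).

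For *Tgfb2* the ratio was 0.558 (0.476 to 0.653) over all cells at week 2, 1.88 (1.40 to 2.48) in the *Aire* gate and 0.480 (0.309 to 0.754) in the *Ccl21a* gate. *Tgfb2* lay below both controls in 6 of 6 populations at week 6. In the cTEC gate this was a near tie, 0.0952 (0.0383 to 0.196, 7 UMIs) against 0.0955 in the control of week 10. The *Trpm5* gate of week 6 had 3 UMIs. At week 10 it was 1.51-fold higher (1.28 to 1.79) over all cells and 1.55-fold (1.24 to 1.94) in the *Aire* gate. For *Tgfb1* the ratio at week 2 was 0.776 (0.689 to 0.873) over all cells and 1.49 (1.16 to 1.89) in the *Aire* gate, and at week 10 it was 0.953 (0.834 to 1.09). So at week 2 *Il15*, *Tgfb1* and *Tgfb2* each had a ratio under 1 over all cells and above 1 in the 62 cells that remained in the *Aire* gate, against 456 in the control.

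*Tslp* had the largest ratio of the members at week 2, 5.39 (4.36 to 6.71) over all cells and 61.4 (45.7 to 84.1) in the *Aire* gate, from 353 and 51 UMIs. A single cell held 275 of the 405 UMIs of the anti-RANKL week 2 library. With the top cell of each library left out, a setting that was chosen after seeing the data, the ratios were 2.11 and 22.3. Of the 78 UMIs that the *Aire* gate of the anti-RANKL week 2 library then still held, 66 lay in another single cell. In cells without a UMI of any of 6 T cell genes the ratio over all cells was 1.74 (1.31 to 2.31) from 114 and 91 UMIs, and 0.937 (0.636 to 1.37) without the top cells. As means over cells the ratios of week 2 were 2.302 over all cells, 31.6 in the *Aire* gate and 1.02 in cells without T cell genes. At week 10 the ratio was 1.04 (0.848 to 1.27) over all cells, and 0.663 as a mean over cells. The cTEC gate then gave 26.0 (8.49 to 129) from 63 and 3 UMIs, of which 60 lay in a single cell, 13.8 as a mean over cells and 1.85 without the top cells.

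*Il33* rose 4.22-fold (3.15 to 5.70) in ungated cells at week 2, from 127 and 75 UMIs in libraries of unequal depth, and was 1.99-fold (1.65 to 2.40) over all cells. In the cTEC gate the ratio was 1.25 (0.859 to 1.86), and in the *Aire* gate 0.141 (0.00351 to 0.814), from 1 and 63 UMIs, or 0.0742 as a mean over cells. At week 10 the ratio was 1.25 (0.914 to 1.72) over all cells and 0.3501 (0.127 to 0.838) in the *Aire* gate, from 7 and 24 UMIs. The ratio of 22.5 (3.62 to 931) in the *Ccl21a* gate at week 10 came from 21 UMIs and 1 UMI and was 72.8 as a mean over cells. The fibroblast list among ungated cells was at 12.3 UMIs per 10000 in the anti-RANKL week 2 library and 2.11 in its control, and its part in the ratio was not tested.

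*Kitl* was 1.75-fold (1.47 to 2.09) over all cells at week 2. The ratio was 3.93 (2.63 to 5.80) in the *Aire* gate, 3.99 (1.66 to 11.6) in the *Trpm5* gate and 2.80 (1.54 to 5.58) in the *Ccl21a* gate, but 1.27 (0.915 to 1.79) in the cTEC gate, where its level was highest. As a mean over cells the cTEC ratio was 0.719, on the other side of 1, and the ratio over all cells 1.29. At week 10 it was 0.734 (0.577 to 0.929) over all cells and 0.374 (0.193 to 0.687) in the *Ccl21a* gate. *Csf1* was 1.57-fold (1.32 to 1.87) over all cells at week 2, 1.84-fold (1.13 to 2.87) in the *Aire* gate and 0.961 (0.681 to 1.38) in the *Ccl21a* gate, and 1.01 (0.834 to 1.23) over all cells at week 10. Its levels over all cells were 0.272 and 0.311 at weeks 4 and 6, against 0.119 and 0.181 in the controls. In ungated cells the ratio of week 2 was 1.82 (1.29 to 2.55), and the levels of weeks 4 and 6 were 0.464 and 0.4305. The fibroblast list was also high in those ungated cells, and its part was not tested.

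**Figure D5:**
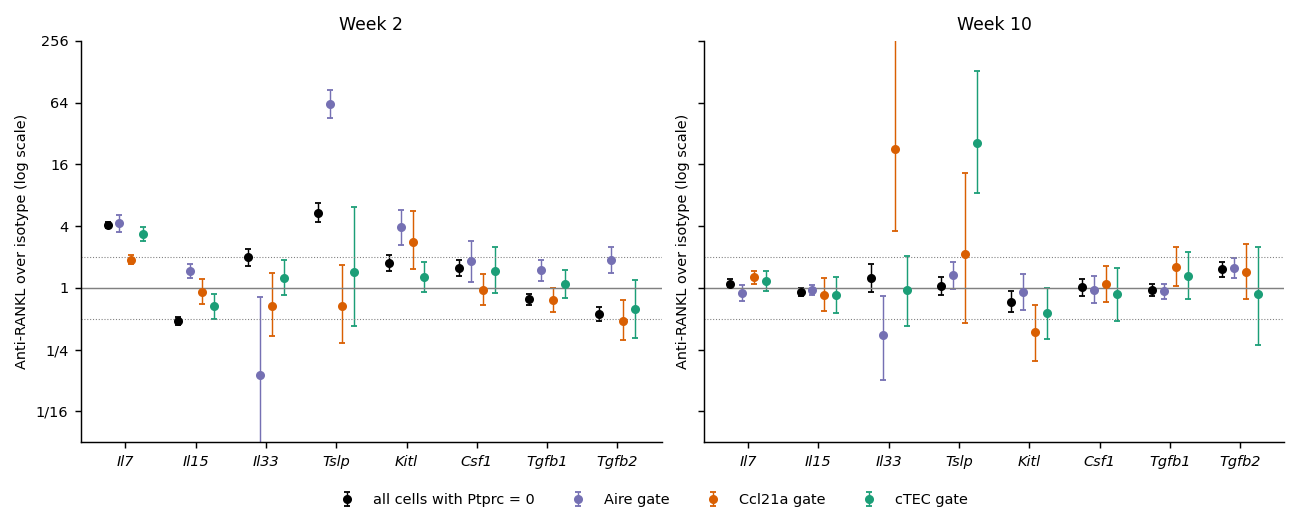
Ratio of the anti-RANKL library to the control of the same week (log axis) for each member, over all *Ptprc*-negative cells and in the *Aire*, *Ccl21a* and cTEC gates, with exact 95% intervals for counting error and dotted lines at 2-fold. The axis cuts the interval of *Il33* in the *Aire* gate at week 2 (down to 0.00351) and in the *Ccl21a* gate at week 10 (up to 931). At week 2 *Il7* lies above 1 in each population drawn, and *Il15*, *Tgfb1* and *Tgfb2* lie above 1 in the *Aire* gate and below 1 over all cells.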

How the data were processed

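The authors sorted EpCAM+ CD45- cells, made 10x Genomics libraries and, per the labels' processing notes, used Cell Ranger 2.2.0 and Seurat 2.3.4 with the mm10 genome. Their methods keep genes in at least 3 cells, and cells with 200 to 7500 genes and up to 10% mitochondrial reads. They name no step against doublets, and none was added here. On deposit each value was a natural log, of 1 plus the UMIs scaled per cell by the authors. Their text has 1000 as the scale, whereas unlogged values of each cell summed to 10000. Whole UMIs were recovered from the values in all 8453 cells, within 0.001. A further 2 tables, which join libraries, were left aside because the same values stand in the tables per library.

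UMIs were summed per gate and library, and profiles of at least 20 cells entered limma 3.58.1 in R 4.3.3 with a trend on abundance, a pseudocount of 0.1 and genes with a mean of at least 0.1 UMIs per 10000. Gates shared cells, so profiles of a library were not fully independent. Thinned shares are expectations for 2000 UMIs per cell, and left shallower cells out, 111 of them in anti-RANKL week 4. Time course ratios of genes with at least 20 UMIs in the pair counted as changed past 2-fold. Intervals cover counting error only. Ratios and shares were computed with scipy 1.17.1 and numpy 2.4.6 under Python 3.11.15, with figures from matplotlib 3.10.9. The gate test was tested on simulated data.

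The members, gates and gene lists were chosen with earlier results of these data known. Beside the members, named genes were the 3 largest called differences per list and gate, and the 3 genes most like each member with r of at least 0.7. A gene that this rule names is not reported here. *Il15ra* and the receptors named as too low to test were chosen after their values were seen. Alternatives changed the pseudocount, the filter on low genes, the cutoffs of the gates, the weights, the library block and the libraries included.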

Additional observations from a re-analysis of the deposited data

Results flagged for a closer look

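Over all cells, the 4 gates and the ungated cells, there were 5 cases in which the ratio of the anti-RANKL library to its control lay on opposite sides of 1 at weeks 2 and 10, with both 95% counting intervals clear of 1. With 1 library per condition the difference between the weeks was not tested. *Kitl* over all *Ptprc*-negative cells went from 1.748 at week 2 to 0.7335 at week 10, and *Kitl* in the *Ccl21a* gate from 2.798 to 0.374. *Tgfb2* over all cells went the other way, from 0.558 to 1.512, as did *Tgfb2* in ungated cells, from 0.6975 to 1.412, and *Il15* in the *Trpm5* gate, from 0.5031 to 1.738. The *Kitl* ratio in the *Ccl21a* gate rested on 112 and 12 UMIs at week 2 and on 15 and 43 UMIs at week 10. Mice of the pairs were 4 and 12 weeks old, so age and time since treatment cannot be told apart.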

How the results depend on the processing

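Genes called in the *Aire* gate went from 5331 of 8640 tested (61.7%) to 8519 of 20784 (41.0%) with no filter on low genes. In the cTEC gate they went from 2109 to 3612 in cells that passed 1 gate only, 3764 with all 4 gates made stricter and 1222 with no library block, and in the *Trpm5* gate from 3094 to 2021 with no library block. Leaving out each library in turn gave 4848 to 5307 genes for *Aire*, 3225 to 4092 for *Ccl21a*, 2503 to 3155 for *Trpm5* and 1544 to 2263 for cTEC. Members past 2-fold at week 10 went from 0 over all cells to 2 in cells of the *Ccl21a* gate (*Il33* and *Kitl*, where 7.53% of genes passed). The *Aire* gate gave 1 (8.38% of genes), the *Trpm5* gate 2 (11.6%) and the cTEC gate 1 (8.04%). With the top cell of each library left out, 4 members instead of 3 passed at week 2, as the ratio of *Il33* went from 1.99 to 2.08. The share of all genes is not given for that setting, so this count has no background. The cause of these moves was not tested.

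Of the member differences under alternatives, 564 kept their direction and side of the threshold, 34 gained a call, 27 lost one and 15 changed sign, the last all among uncalled differences. These counts are not all of distinct fits. Each profile had at least 22 cells, so the setting of at least 10 cells was the main fit itself. The antibody experiment alone was the fit without the lineage tracing library, which is counted under both names. An exact sign-flip test over libraries is also among the alternatives. *Csf1* in the *Aire* gate became -0.0053 with at least 40 cells per profile and -0.11 weighted by cells. *Tgfb1* in the cTEC gate became 0.00083 with at least 40 cells, 0.0094 with looser cutoffs and 0.0497 weighted. *Il33* in the *Trpm5* gate became -0.41 with 1 gate only, -0.0018 as a mean over cells and -0.11 with stricter gates. Leaving out each library in turn gave -0.0053 to 0.198 for *Csf1* in the *Aire* gate, -0.0456 to 0.798 for *Tslp* there, -0.0581 to 0.0067 for *Tgfb1* in the cTEC gate, -0.563 to 0.0199 for *Tslp* there, -0.0313 to 0.319 for *Il33* in the *Trpm5* gate and -0.0493 to 0.125 for *Tgfb2* there. The *Tslp* ratio of week 2 became -0.59 on the log2 scale in the *Ccl21a* gate, a ratio of 0.666 (0.29 to 1.66) from 20 and 9 UMIs. Of the 9 control UMIs, 7 lay in a single cell, and without the top cells the ratio was 2.7. No paired analysis was possible because the labels give the conditions of the time course 1 library each; gates were compared within libraries, with the library as a block. Depth limits *Il33*, *Tslp* and *Kitl*, with 1014 to 1164 UMIs each.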
